A study of Mus musculus with 18 samples.

Results

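The 10 genes described here are ligands and receptors of the transforming growth factor beta (TGF-beta) and bone morphogenetic protein (BMP) families: the ligands Bmp2, Bmp4, Bmp7, Tgfb1 and Tgfb2, the type I receptors Bmpr1a, Acvr1 and Tgfbr1, and the type II receptors Bmpr2 and Tgfbr2. Every transcript cluster of the array whose annotated symbol is one of them was taken, which gave 1 cluster a gene, 10 of 23410 clusters with a symbol and of 35556 in all. The cells were mIMCD-3, a single immortalized epithelial line from the inner medullary collecting duct of the mouse kidney, treated for 24 h. In the first experiment the groups were vehicle (DMSO and ethanol, each at 0.1%), 1 µM AGN193109 (an antagonist of all retinoic acid receptors), and 1 µM AGN193109 with 0.2 µM all-trans retinoic acid (tRA). In the second they were the same vehicle, 25 µM DEAB (4-(diethylamino)benzaldehyde, an inhibitor of the retinaldehyde dehydrogenases that make retinoic acid), and 25 µM DEAB with 0.01 µM tRA. Each group had 3 arrays, which the labels describe as independent biological experiments, so each experiment had 9 arrays and the study 18. The comparisons ask which transcripts depend on the retinoic acid signal that these cells make themselves.

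TGF-beta and BMP ligands are secreted dimers that assemble a pair of type I and a pair of type II receptor kinases on the cell surface. The type II kinase phosphorylates the type I kinase, which then phosphorylates receptor Smads: Smad1, Smad5 and Smad9 mainly after BMPs, Smad2 and Smad3 after TGF-beta and activin. In the kidney, Bmp7 is made by the collecting duct lineage and is needed for nephron formation, whereas TGF-beta is known for its part in fibrosis.

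Promoter sequence is shown for Tgfb2, 1 of the 2 ligands whose change passed a test below; the RefSeq promoter table held an entry for 8 of the 10 genes, with Bmp7 and Bmp2 not among them. The run is the 250 bases before the annotated start, read 5′ to 3′ along the gene, at chr1:186705990-186706239 on the minus strand of GRCm38.p6.
Tgfb2: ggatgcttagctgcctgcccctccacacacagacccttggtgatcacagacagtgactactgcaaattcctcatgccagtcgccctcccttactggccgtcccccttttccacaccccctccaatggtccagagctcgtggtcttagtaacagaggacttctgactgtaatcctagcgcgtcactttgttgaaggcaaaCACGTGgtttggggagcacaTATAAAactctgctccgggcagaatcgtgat
The capitals mark an E-box, CACGTG, whose first base lies 51 bases before the start, and a TATA box, TATAAA, 31 bases before it. Both motifs were picked after the sequence had been read. CACGTG is in 6.0% and TATAAA, on the strand of the gene, in 7.60% of 32807 RefSeq promoters of the same length. Retinoic acid receptors bind pairs of a half-site, set as direct repeats spaced by 1, 2 or 5 bases. The spellings searched were the consensus AGGTCA and variants of it, which were GGGTCA in the first case, AGTTCA in the next and GGTTCA in the last. None of these 4 spellings occurs on either strand of the Tgfb2 window. A half-site is in 38.6% and a direct repeat in 0.43% of all the promoters, and among the 9 entries of the 8 genes only that of Tgfbr2 holds a half-site, AGTTCA on the opposite strand, and none a direct repeat. These letters being absent from a window says nothing about the rest of a locus.

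Levels are log2 values from the robust multichip average (RMA), in which a difference of 1 is a doubling. The 2 experiments were normalized apart, with array medians of 7.23 to 7.33 and 7.48 to 7.51, so levels are compared within an experiment and not between genes. The epithelial genes Cdh1, Krt8, Krt18 and Pax8 were bright, and 13 of 16 collecting duct and epithelial markers lay above the 30th percentile of all clusters in at least 1 experiment, Aqp2 and Avpr2 included; Aqp4, Elf5 and Calb1 did not. Of the fibroblast markers Pdgfra, Pdgfrb, Dcn and Lum were below it in both experiments and the collagens Col1a1, Col1a2 and Col3a1 were not. Of the 5 leukocyte markers Ptprc and Adgre1 were below it in both experiments, and Cd68, Csf1r and Cd3e were not. Csf1r stood at -0.43 with AGN193109 and -0.29 with DEAB (adjusted p = 0.361 and 0.157 in the blocked limma fit described below). Above it in at least 1 experiment were also 3 of 5 intercalated cell, 4 of 5 proximal tubule and podocyte and 2 of 5 endothelial markers. No marker of these cell types was called with either inhibitor in that fit, and their part in the results was not tested. Among the 10 genes only Bmp2 lay below that percentile, in both experiments.

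Bmp7, the BMP ligand needed for nephron formation, was lower with both inhibitors in every replicate. In the AGN193109 experiment its levels were 9.06, 8.42 and 9.35 in the vehicle arrays of replicates 1, 2 and 3, 8.27, 7.94 and 8.42 with AGN193109, and 8.81, 8.35 and 8.93 with AGN193109+tRA. Replicate 2 was the lowest array of each group, and within each replicate the inhibitor array was below the other two. Its change with AGN193109 was -0.73 on the log2 scale (0.601 times the vehicle level), with same-number differences of -0.79, -0.48 and -0.93. This change was not called in the limma fit of group means alone (SE 0.24, adjusted p = 1.00), and was called when replicate number entered the fit as a block (SE 0.091, adjusted p = 0.0176). With the block, the call was lost when any of 5 of the 9 arrays was left out: vehicle replicate 1 (adjusted p = 0.143) or 3 (0.104), AGN193109 replicate 1 (0.153) or 3 (0.0760), or AGN193109+tRA replicate 2 (0.0547), with changes of -0.84 to -0.64 over all 9. As the arrays measure RNA of whole cultures, less Bmp7 RNA per cell and fewer cells that express it cannot be told apart. With tRA added to AGN193109 the Bmp7 level was higher by 0.49, or 1.40-fold (SE 0.24 without and 0.091 with the block; adjusted p = 1.00 and 0.218), which did not pass either test.

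In the DEAB experiment the Bmp7 levels were 8.93, 9.20 and 9.08 in vehicle, 8.54, 8.76 and 8.78 with DEAB, and 9.02, 9.53 and 9.34 with DEAB+tRA. The DEAB arrays lay below all vehicle and all DEAB+tRA arrays, and the last 2 groups overlapped. The change with DEAB was -0.38, or 0.770 times vehicle (SE 0.13, adjusted p = 1.00; with the block SE 0.061, adjusted p = 0.0905), and did not pass. Adding 0.01 µM tRA to DEAB raised Bmp7 by 0.60, or 1.52-fold, which was called with the block (SE 0.061, adjusted p = 0.00530) and not without it (SE 0.13, adjusted p = 0.168). With the block that call held with each of the 9 arrays left out, at 0.53 to 0.66.

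Tgfb2, the TGF-beta ligand with the wider changes, ran in the same direction as Bmp7. Its levels in the DEAB experiment were 9.83, 9.43 and 9.19 in vehicle, 9.48, 9.05 and 8.85 with DEAB, and 10.11, 9.65 and 9.54 with DEAB+tRA. Replicates differed about as much as groups did, with replicate 1 the highest and replicate 3 the lowest of each group, while the differences within a replicate were even. The differences of DEAB from vehicle were -0.36, -0.39 and -0.34 in replicates 1, 2 and 3, a mean of -0.36 or 0.780 times vehicle. The fit with the block called it (SE 0.040, adjusted p = 0.0217) and the fit without did not (SE 0.22, adjusted p = 1.00). With the block the call stood without DEAB+tRA replicate 2 (adjusted p = 0.0459) or 3 (0.0469) and was lost without any other array: vehicle replicate 1 (0.133), 2 (0.168) or 3 (0.0888), DEAB replicate 1 (0.137), 2 (0.158) or 3 (0.124), or DEAB+tRA replicate 1 (0.0601), with changes of -0.38 to -0.34.

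Adding tRA to DEAB raised Tgfb2 by 0.63, 0.61 and 0.68 in the 3 replicates, a mean of 0.64 or 1.56-fold. This was called with the block (SE 0.040, adjusted p = 6.6e-04), also without each array in turn (0.61 to 0.66), and was not called without the block (SE 0.22, adjusted p = 0.636). The DEAB+tRA arrays all lay above the DEAB arrays. In the AGN193109 experiment the levels were 8.97, 9.22 and 8.85 in vehicle, 8.58, 8.92 and 8.65 with AGN193109, and 8.91, 9.27 and 8.95 with AGN193109+tRA. Tgfb2 was again lowest with the inhibitor in each replicate, and here replicate 2 was the highest of each group. The change with AGN193109 was -0.30 (SE 0.14, adjusted p = 1.00; with the block SE 0.066, adjusted p = 0.167) and that with tRA added was 0.32 (same SEs; adjusted p = 1.00 and 0.295), and neither passed.

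**Figure D1:**
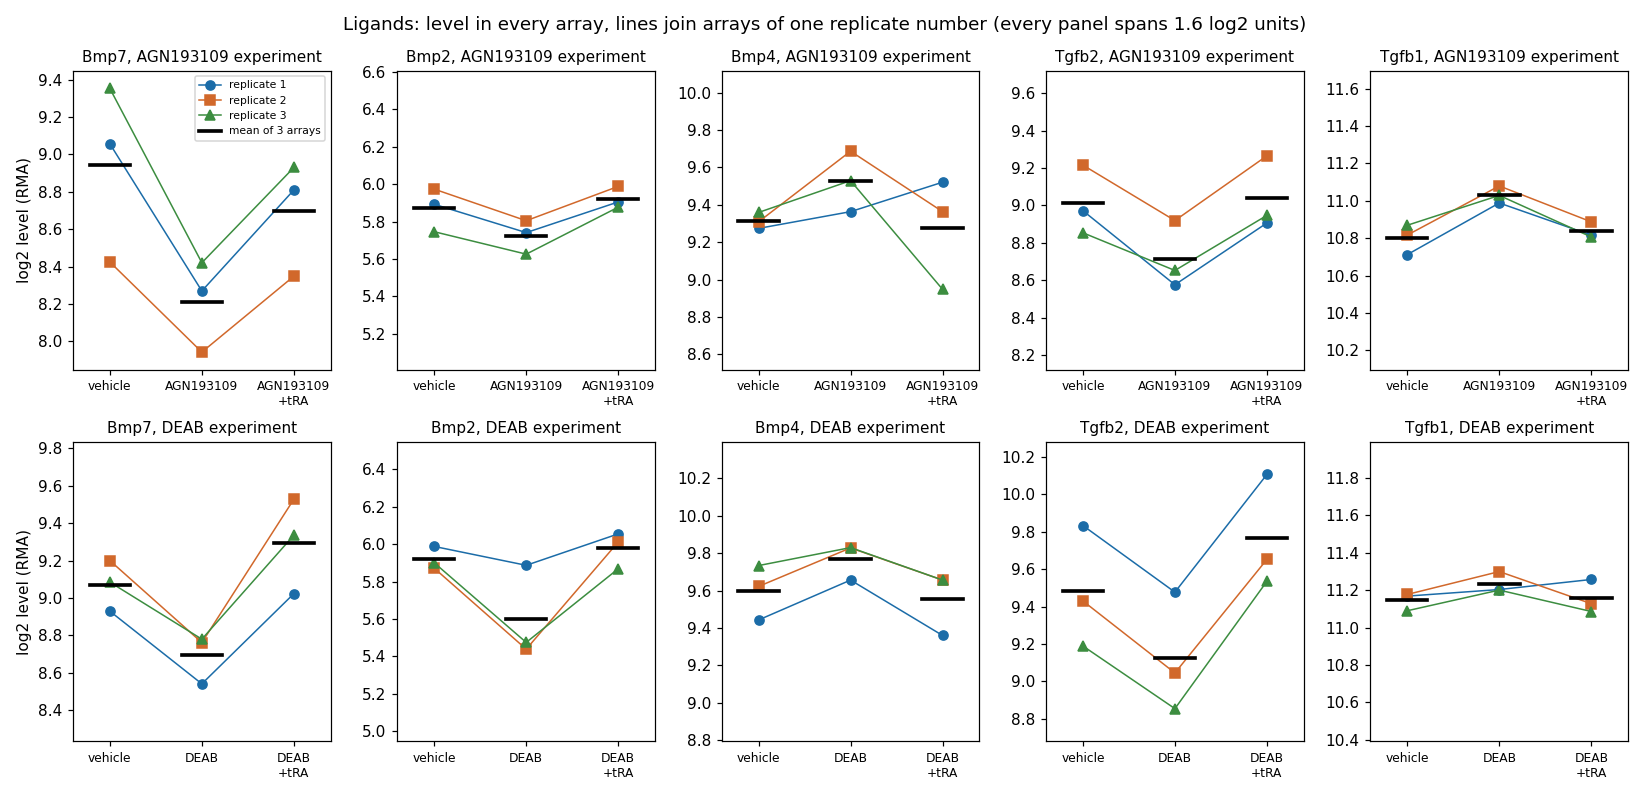
Log2 RMA level of the 5 ligands (y axis, each panel spanning the same range of log2 units) in the 3 groups of the AGN193109 experiment (top) and the DEAB experiment (bottom). Each point is 1 array, lines join the arrays of one replicate number and black bars are means of 3 arrays. The lines of Bmp7, Tgfb2 and the dim Bmp2 dip at the inhibitor in every replicate of both experiments, and those of Bmp4 do not.

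Bmp2, a BMP ligand whose cluster was dim, was lower with both inhibitors in all 3 replicates, yet passed no test on the full set of arrays. Its levels with AGN193109 were 5.74, 5.80 and 5.63 beside 5.89, 5.97 and 5.75 in vehicle and 5.91, 5.99 and 5.88 with AGN193109+tRA. They overlapped with vehicle and not with AGN193109+tRA. In the DEAB experiment the levels were 5.99, 5.87 and 5.90 in vehicle, 5.89, 5.44 and 5.47 with DEAB, and 6.06, 6.01 and 5.87 with DEAB+tRA. DEAB replicate 1 was level with vehicle and the other 2 DEAB arrays were the lowest of the experiment. The changes were -0.15 with AGN193109, 0.20 with tRA added to it, -0.32 with DEAB and 0.38 with tRA added to DEAB. The last had an adjusted p of 0.484 without and 0.0940 with the block. Without DEAB replicate 1, the array level with vehicle, it was 0.52 and passed the fit without the block (adjusted p = 0.0448). Of the 9 arrays left out in turn, this was the only 1 whose removal gave a pass in that fit.

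Bmp4, another BMP ligand, and Tgfb1, the most widely expressed TGF-beta, stood higher with the inhibitors. Bmp4 levels were 9.27, 9.31 and 9.36 in vehicle, 9.36, 9.69 and 9.53 with AGN193109, and 9.52, 9.36 and 8.95 with AGN193109+tRA. Replicate 1 was highest with tRA added and replicates 2 and 3 with the inhibitor alone. In the DEAB experiment they were 9.44, 9.62 and 9.73 in vehicle, 9.66, 9.83 and 9.83 with DEAB, and 9.36, 9.66 and 9.66 with DEAB+tRA, so that DEAB was the highest array of each replicate. The Bmp4 changes were 0.21 with AGN193109 and 0.17 with DEAB (adjusted p = 0.866 and 0.344 with the block, 1.00 for both without it), and -0.25 and -0.21 with tRA added (0.999 and 0.0940 with the block, 1.00 and 0.811 without it). Tgfb1 levels were 10.71, 10.82 and 10.87 in vehicle, 10.99, 11.08 and 11.03 with AGN193109, and 10.82, 10.89 and 10.81 with AGN193109+tRA. The AGN193109 arrays lay above the other 6. The difference of 0.23 (SE 0.071) had an unadjusted p of 0.00856 in limma and an adjusted p of 1.00, or 0.337 with the block. With DEAB the Tgfb1 levels were 11.20, 11.30 and 11.20 beside 11.17, 11.18 and 11.09 in vehicle and 11.26, 11.13 and 11.09 with DEAB+tRA, a change of 0.089 that also did not pass (adjusted p = 0.720 with the block).

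Of the receptors none was called in any comparison by either fit. Tgfbr2, the type II receptor that binds TGF-beta, was lower with AGN193109 in every replicate. Its levels were 10.60, 10.62 and 10.92 in vehicle, 10.35, 10.42 and 10.64 with AGN193109, and 10.61, 10.62 and 10.93 with AGN193109+tRA. Each AGN193109 array was 0.20 to 0.29 below both other arrays of its replicate, and replicate 3 was the highest of each group. The change was -0.24 with AGN193109 (adjusted p = 0.253 with the block) and 0.25 with tRA added (0.468). With DEAB the levels were 11.37, 11.22 and 11.26 beside 11.44, 11.24 and 11.20 in vehicle, a difference of -0.0082 with a 95% interval of -0.11 to 0.091 in the blocked fit. DEAB+tRA gave 11.46, 11.30 and 11.35, and the 3 groups overlapped.

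Tgfbr1, the type I receptor of TGF-beta, had levels of 9.24, 9.18 and 9.02 in vehicle, 9.39, 9.24 and 9.53 with AGN193109, and 9.31, 9.19 and 9.10 with AGN193109+tRA. AGN193109 was the highest array of each replicate, by the widest margin in replicate 3. The difference from vehicle was 0.24 (adjusted p = 0.669 with the block, and 1.00 without). In the DEAB experiment the levels were 9.84, 9.96 and 9.84 in vehicle, 9.79, 9.99 and 9.84 with DEAB, and 9.63, 9.79 and 9.86 with DEAB+tRA, with overlapping groups. Bmpr2, the type II receptor for BMPs, was at 12.37, 12.22 and 12.15 in vehicle, 12.56, 12.28 and 12.34 with AGN193109, and 12.67, 12.29 and 12.32 with AGN193109+tRA. Both treated arrays of each replicate were above its vehicle array, and the changes of 0.15 and 0.18 did not pass (adjusted p = 0.741 and 0.930 with the block). In the DEAB experiment all 9 Bmpr2 arrays lay between 12.44 and 12.53, and the 95% interval of the DEAB effect, -0.089 to 0.091 with the block, was among the narrowest of the 10 genes.

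Acvr1, a type I receptor used by BMP7 among others, had levels of 9.25, 9.37 and 9.03 in vehicle, 9.38, 9.42 and 9.31 with AGN193109, and 9.42, 9.51 and 9.23 with AGN193109+tRA. All 3 replicates were higher with AGN193109, by a mean of 0.16 (adjusted p = 0.723 with the block). In the DEAB experiment its levels ran from 9.66 to 10.03 in vehicle, 9.73 to 9.91 with DEAB and 9.74 to 9.94 with DEAB+tRA. Bmpr1a, a type I receptor for BMP2 and BMP4, ran from 11.19 to 11.20 in vehicle, 11.16 to 11.46 with AGN193109 and 11.07 to 11.42 with AGN193109+tRA, and from 11.78 to 11.83, 11.68 to 11.79 and 11.62 to 11.83 in the DEAB experiment. Groups of both receptors overlapped in both experiments, and the Bmpr1a differences with the inhibitors were 0.074 (95% interval -0.18 to 0.33, with the block) and -0.053 (-0.16 to 0.054).

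**Figure D2:**
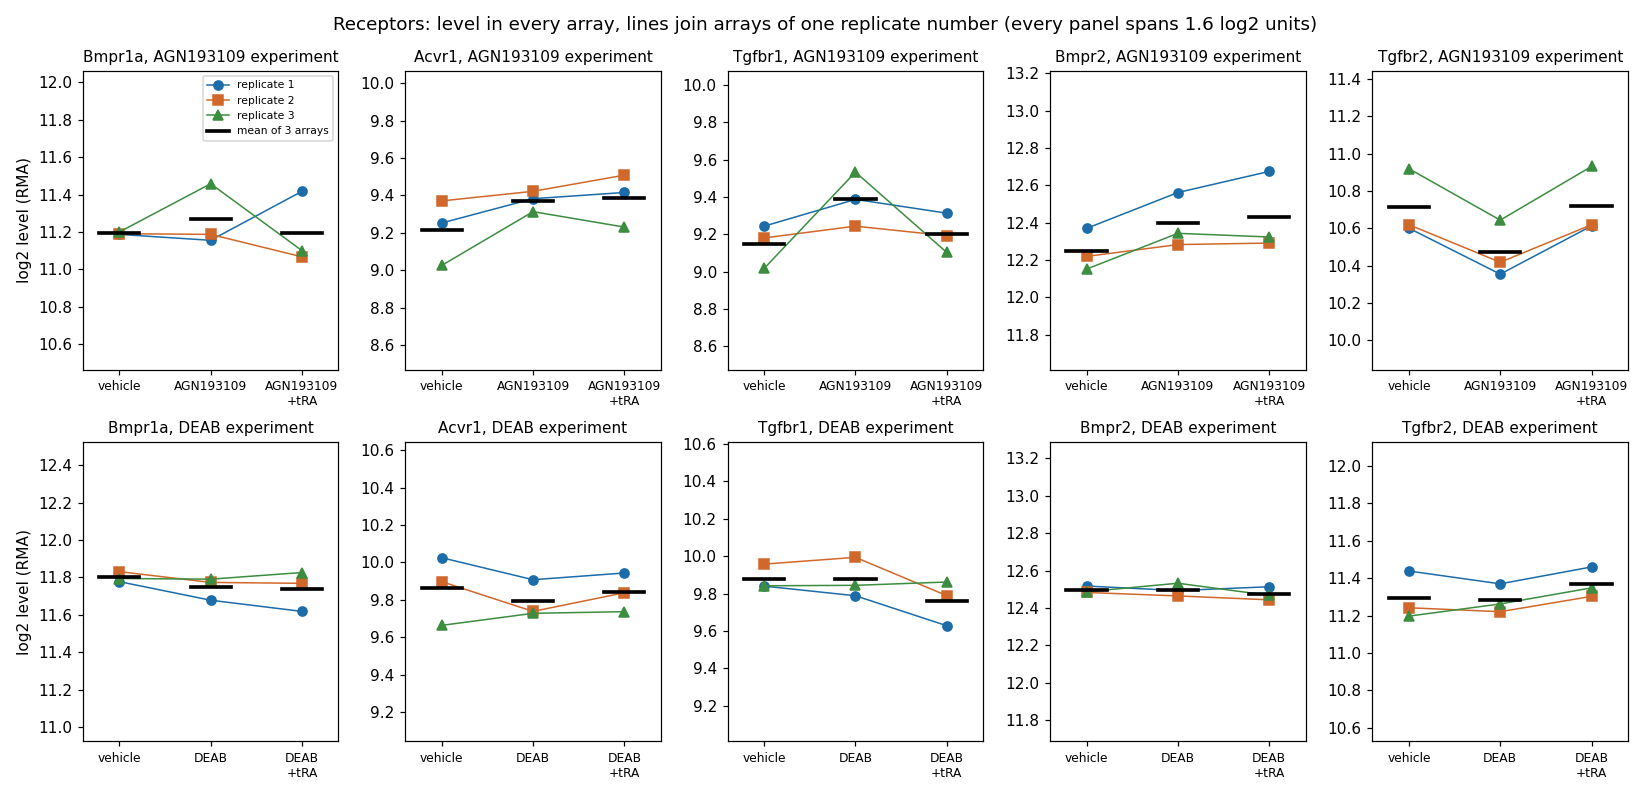
Log2 RMA level of the 5 receptors (y axis, each panel spanning the same range of log2 units) in the groups of the AGN193109 experiment (top) and the DEAB experiment (bottom), with 1 point an array, lines joining arrays of one replicate number and black bars for means of 3 arrays. Tgfbr2 dips with AGN193109 in every replicate, while the 9 Bmpr2 arrays of the DEAB experiment lie between 12.44 and 12.53.

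Read against the whole array, the count of called ligands and receptors rests on the block. With AGN193109, 0 of the 10 were called by limma without the block, where 0.0683% of all clusters were, and 1, Bmp7, with it, where 0.457% were. With tRA added to AGN193109 neither fit called any of the 10, beside 0.0214% of all clusters without and 0.0812% with the block. With DEAB, none was called without the block (0.0342% of all clusters) and Tgfb2 with it (0.303%). With tRA added to DEAB, none was called without the block (0.325%), and Bmp7 and Tgfb2, both higher, with it (1.50%). At an unadjusted p under 0.05 and without the block, 3 of the 10 genes passed with AGN193109 (3.30% of all clusters), 3 with tRA added to it (2.14%), 2 with DEAB (4.05%) and 3 with tRA added to DEAB (6.39%). With the block these counts were 6 (6.99%), 5 (5.20%), 4 (7.99%) and 4 (11.8%). The study placed Bmp7 and Tgfb2 on its own list of retinoid-dependent genes from these same arrays, so their calls are not independent evidence of a direction. That list used a looser threshold than the one here, set by the gene Foxa1. Before the arrays, the study also measured Bmp7 by quantitative PCR after reverse transcription. It reported Bmp7 lower with either inhibitor, with tRA at least partly undoing this.

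By sign alone, all 3 same-number differences ran one way for 9 of the 10 genes with AGN193109, 5 higher and 4 lower, where 24.0% of all clusters did so. For tRA added to AGN193109 this held for 6 of 10 (20.7% of all clusters), for DEAB for 6 of 10 (25.2%) and for tRA added to DEAB for 6 of 10 (31.7%). Bmp7, Bmp2 and Tgfb2 were lower with each inhibitor and higher with tRA added in all 12 such same-number differences of each gene. The inhibitor arrays enter both the comparison with vehicle and that with tRA, so these 2 runs of signs are not separate. The share of all clusters with this joint pattern was not counted, so whether it is rare is not known here. Over the 10 genes the median change was 0.11 with AGN193109, beside 0.015 over all clusters, and -0.031 with DEAB, beside -0.0001.

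**Figure D3:**
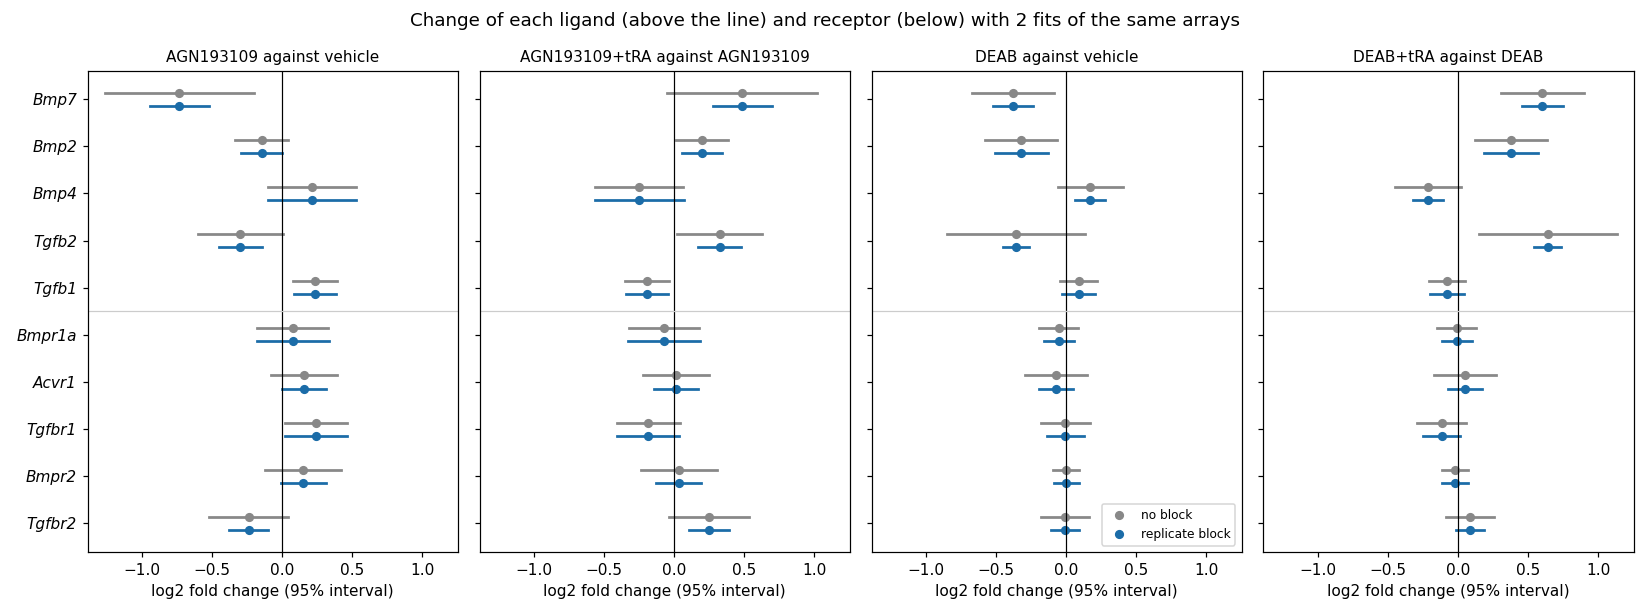
Log2 fold change of the 10 genes (x axis) in 4 comparisons, with 95% intervals from limma fits without a block (grey) and with replicate number as a block (blue). The block leaves each change as it is and narrows the intervals of Bmp7 and Tgfb2, for Tgfb2 after tRA added to DEAB from 0.15 to 1.13 down to 0.55 to 0.73.

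Against vehicle, limma called none of the 10 genes in the cells given inhibitor and tRA together. No cluster at all was called without the block in either comparison (0% with AGN193109+tRA and 0% with DEAB+tRA), and with the block 0.00427% and 0.0214% of all clusters were called. At an unadjusted p under 0.05, 0 of the 10 genes passed in either comparison without the block, beside 1.79% and 5.99% of all clusters, and 3 and 2 of the 10 with it, beside 5.04% and 11.1%. Bmp7 stood at -0.25 against vehicle with AGN193109+tRA, lower in all 3 replicates, and at 0.22 with DEAB+tRA, higher in all 3 (adjusted p = 0.930 and 0.349 with the block). Tgfb2 stood at 0.026 and 0.28 (adjusted p = 0.991 and 0.150). The same-number differences of Tgfb2 with DEAB+tRA were 0.27, 0.22 and 0.35, while those with AGN193109+tRA had both signs. Signs were uniform over replicates for 5 of the 10 genes with AGN193109+tRA (23.3% of all clusters) and for 4 with DEAB+tRA (28.6%). The tRA dose was 0.2 µM in one experiment and 0.01 µM in the other, so the tRA effects are set side by side and not compared.

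The effects of the 2 inhibitors, each against its own vehicle arrays, were compared by an interaction contrast over all 18 arrays, with p-values adjusted over all clusters. None of the 10 genes was called, with 0% of all clusters called without the block and 0.00427% with it. At an unadjusted p under 0.05, 0 of the 10 passed without the block, beside 2.30% of all clusters, and 3 with it, Bmp7, Acvr1 and Tgfbr2, beside 5.57%. For Bmp7 the AGN193109 effect exceeded the DEAB effect in size, the difference being -0.36 with a 95% interval of -0.97 to 0.26 without the block and -0.60 to -0.11 with it (adjusted p = 0.741). The difference was -0.23 for Tgfbr2 (-0.56 to 0.092 without and -0.38 to -0.088 with the block, adjusted p = 0.647 with it). For Acvr1 it was 0.23 (-0.087 to 0.54 without and 0.046 to 0.41 with the block, adjusted p = 0.859 with it). For Tgfb2 it was 0.061 (-0.51 to 0.63 without and -0.096 to 0.22 with the block). The intervals are not adjusted for the number of genes. The 2 compounds differ in target, one blocking the receptors and the other the synthesis of the ligand, and were each given at 1 dose.

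The wider pathway was described with 9 lists of 114 genes, of which 107 were measured. Across them 2 genes were called lower with AGN193109 in the blocked fit, 1 lower with DEAB, and 6 higher and 2 lower with tRA added to DEAB, beside the shares of all clusters given above; the fit without the block called 1, 0 and 2. The median change of the 107 genes was 0.017 with AGN193109 and 0.018 with DEAB. They were Smad3, Ltbp1, Ltbp3, Itgb8, Id2, Acta2, Tgfbr3 and Cdkn2b, none of them a ligand or a signaling receptor.

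Smad3, the receptor Smad that carries TGF-beta and activin signals, was the most changed of the 15 Smads and regulators. Its log2 change was -0.80 with AGN193109 (adjusted p = 0.00340 without and 0.00152 with the block), -0.46 with DEAB (0.139 and 0.00483) and 0.60 with tRA added to DEAB (0.0106 and 6.6e-04). No other Smad or regulator was called: the inhibitory Smad6 and Smad7 stood at -0.22 and -0.24 with AGN193109 and at -0.095 and -0.15 with DEAB. Among the 15 measured genes of latency, activation and matrix binding, the latent TGF-beta binding protein Ltbp3 changed by -0.68 with AGN193109 (adjusted p = 0.160 without and 0.0354 with the block). With tRA added to DEAB, Ltbp1 (0.96, adjusted p = 0.0456 and 0.00310), Ltbp3 (0.46, 0.486 and 0.0177) and the integrin subunit Itgb8 (0.28, 0.824 and 0.0266), part of an integrin that frees TGF-beta from its latent form, were higher. Itgb6, a subunit of another such integrin, and the integrin subunit Itgav stood at 0.22 and 0.060 and were not called. Smad3, Ltbp1, Ltbp3 and Id2 are also on the study's own list from these arrays.

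The ligands outside the 10 genes and the receptors outside them gave no call in any of these comparisons: 0 of 17 measured BMP and growth differentiation factors, 0 of 9 TGF-beta, activin and inhibin ligands and 0 of 7 receptors, in either fit. Of all clusters, at most 0.325% were called without the block and 1.50% with it, both with tRA added to DEAB. Counts of 0 in lists this short are near those shares. Inhba, the activin A subunit, stood at 0.37 with AGN193109 and 0.19 with DEAB (adjusted p = 0.195 and 0.448 with the block), Bmp8b at 0.10 and 0.18, and the activin receptor Acvr1b at 0.020 and 0.053. The 16 measured secreted antagonists, such as Grem1 (0.00090 and 0.12) and Twsg1 (-0.10 and -0.096), also gave none. Of the 8 co-receptors and decoys, Tgfbr3, the betaglycan that presents TGF-beta2 to the signaling receptors, changed by -0.54 with tRA added to DEAB (adjusted p = 0.873 without and 0.0126 with the block) and stood at 0.062 with DEAB alone, and the decoy Bambi stood at 0.20 with AGN193109 and 0.11 with DEAB and was not called.

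Known targets of the 2 pathways gave 3 calls, all with tRA added to DEAB in the blocked fit, which called 1.50% of all clusters there. Of 13 measured genes known to be induced by BMP signaling, only Id2, an inhibitor of helix-loop-helix factors, was called: higher by 0.49 with tRA added to DEAB (adjusted p = 0.566 without and 0.0118 with the block), after -0.67 with AGN193109 (0.0578 with the block) and -0.39 with DEAB (0.0747). Of 16 measured genes known to be induced by TGF-beta, the smooth muscle actin Acta2 was higher (0.58, adjusted p = 0.773 and 0.00236) and the cell cycle inhibitor Cdkn2b lower (-0.30, 0.0687 and 0.0292) with tRA added to DEAB, and the other 14 were not called. The median change with tRA added to DEAB was 0.091 over the first list and 0.064 over the second, beside 0.0060 over all clusters.

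**Figure D4:**
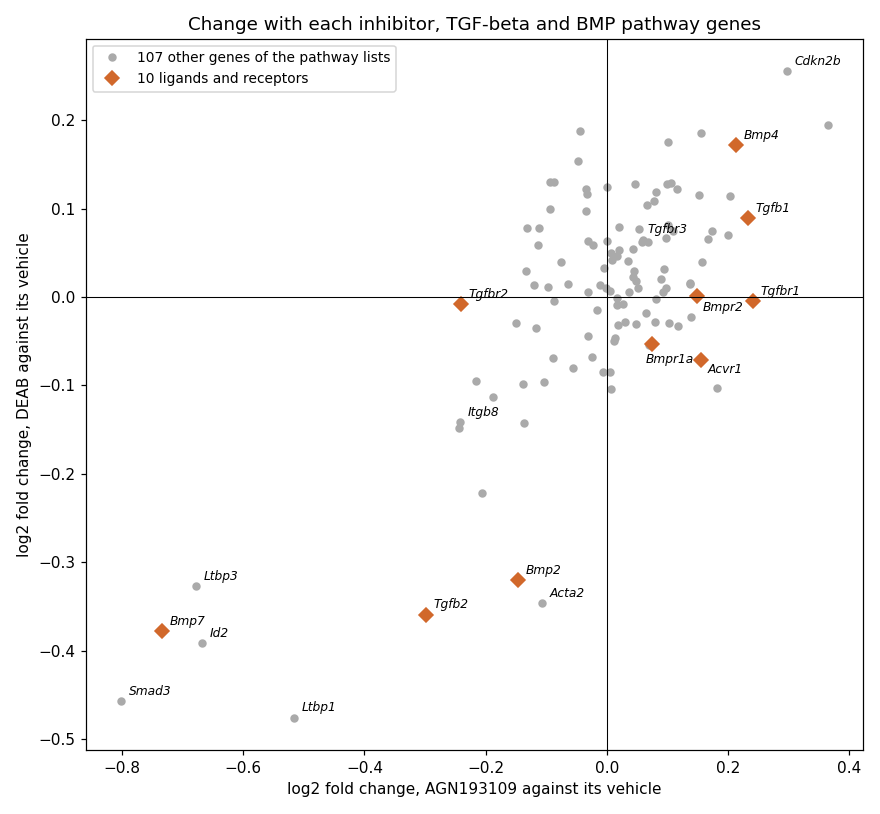
Log2 fold change with AGN193109 (x axis) against that with DEAB (y axis), each against the vehicle arrays of its own experiment, for the 10 ligands and receptors (orange diamonds) and 107 other measured genes of the pathway lists (grey points, with the genes called in any comparison named). Smad3, Bmp7, Id2, Ltbp3 and Ltbp1 lie at the lower left with both inhibitors, and most other genes lie near 0 on both axes.

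Across the 18 arrays, after the mean of each experiment was subtracted, the 10 genes did not follow one pattern. Pearson's r between Bmp2 and Tgfb2 was 0.87, that between Bmp7 and Tgfb1 -0.69, and that between Bmp7 and Tgfb2 0.16. In the AGN193109 experiment the replicate 2 arrays were the lowest of their group for Bmp7 and the highest for Tgfb2, and in the DEAB experiment the replicate 1 arrays were. The 3 genes whose levels followed Bmp7 most closely were Psca (r = 0.95), Gabrp (0.94) and Cpm (0.93), and those for Tgfb2 were Dusp1 (0.92), Ankrd1 (0.91) and Hk2 (0.88). Psca encodes a cell surface antigen, Gabrp a GABA receptor subunit, Cpm a membrane carboxypeptidase, Dusp1 a phosphatase of MAP kinases, Ankrd1 an ankyrin repeat protein and Hk2 a hexokinase. The arrays share treatments and replicate numbers, so these values describe likeness only.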

How the data were processed

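The data were 18 Mouse Gene 1.0 ST arrays (Affymetrix), each hybridized with RNA of mIMCD-3 cells. Per the labels and the study's methods, the authors summarized and normalized the arrays with RMA in Affymetrix software and deposited log2 values (software version not given in the sources used here). Arrays were grouped by title. Some label fields of AGN193109 arrays spell the compound AGN193110 or AGN193099, and the way short names were written tied the vehicle arrays to an experiment.

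The deposited log2 values were used unchanged. Clusters were named from the platform annotation: of 35556, 21789 carry 1 symbol, 1621 several and 12146 none, and the 23410 with a symbol were tested. The 10 genes were found in RefSeq by gene ID with equal symbols. The models of limma 3.58.1 in R 4.3.3 were fitted to the 9 arrays of an experiment at a time with group means and moderated variances, and p-values were adjusted by Benjamini-Hochberg over all 23410 clusters, with 0.05 as the threshold of a call. A second fit added replicate number as a block, since in both experiments the residuals of all 9 same-number pairs of arrays correlated by more than 0.1 (0.198 to 0.645 and 0.179 to 0.614), against -0.575 to 0.205 and -0.511 to 0.312 for other pairs. The labels do not say that a replicate number marks a shared culture or day, so this pairing was inferred from these same arrays. The residuals were taken from group means, so positive correlations of same-number pairs push those of other pairs down. The difference between inhibitors was an interaction contrast. A cluster is dim where its mean is under the 30th percentile of an experiment.

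The 10 genes, the 9 lists, the markers and the motifs were chosen with earlier results of these data known. Of the lists, genes called in any comparison and up to 2 more with the smallest adjusted p were eligible to be named, and for Bmp7 and Tgfb2 the 3 genes with the highest Pearson's r. The alternatives were the block, quantile normalization again, dim clusters left out, all 18 arrays in 1 fit, only the 6 arrays of a comparison, and each array left out. Precision is limited by the number of arrays: 3 against 3 allow no permutation p below 0.1, and p-values therefore depend on the model. The fits were run on simulated data with known changes, in which arrays of one replicate number were given a shared shift. That simulation assumes the pairing and cannot show that the arrays here are paired. Promoters are those of RefSeq, GRCm38.p6. Python 3.11.15 with matplotlib 3.10.9 drew the figures.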

Additional observations from a re-analysis of the deposited data

Results flagged for a closer look

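In the comparisons of inhibitor with tRA against vehicle, 2 genes had opposite signs that were uniform over the 3 replicates of each experiment. The mean changes of Bmpr1a, Acvr1 and Tgfbr1 also differed in sign, but their replicates were not uniform in both experiments. Of all clusters, 23.3% had signs uniform over replicates with AGN193109+tRA and 28.6% with DEAB+tRA. The share of all clusters with uniform and opposite signs was not counted. Bmp7 stood at -0.25 with AGN193109+tRA, lower in all 3 replicates, and at 0.22 with DEAB+tRA, higher in all 3. Bmpr2 stood at 0.18 with AGN193109+tRA, higher in all 3 replicates, and at -0.021 with DEAB+tRA, lower in all 3. Quantile normalization again turned the DEAB+tRA value of Bmpr2 to 0.0008. The difference was not tested for either gene, as the tRA doses of the 2 experiments differ.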

How the results depend on the processing

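The 5 ligands kept their direction in the comparisons of each inhibitor with vehicle and of tRA added to it under all alternatives run. Calls depended on the replicate block. With it, clusters called went from 16 to 107 with AGN193109, 5 to 19 with tRA added to it, 0 to 1 for AGN193109+tRA against vehicle, 8 to 71 with DEAB, 76 to 351 with tRA added to DEAB, 0 to 5 for DEAB+tRA against vehicle and 0 to 1 for the difference between inhibitors. The genes among the 10 that were called went from 0 to 1 with AGN193109, 0 to 1 with DEAB and 0 to 2 with tRA added to DEAB. Without dim clusters 13 clusters were called with DEAB, and Bmp2 has no value. With only the 6 arrays compared, 2, 0, 5 and 25 clusters were called with AGN193109, tRA added to it, DEAB and tRA added to DEAB. With all 18 arrays in 1 fit, 54 were called with AGN193109 and 9 with tRA added to it.

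Quantile normalization turned the sign of values near 0: Bmpr1a for AGN193109+tRA against vehicle (-0.0013), Tgfbr1 (0.013) and Tgfbr2 (0.0072) with DEAB, and Acvr1 (0.017) and Bmpr2 (0.00080) for DEAB+tRA against vehicle. The cause was not tested.

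With each array left out in turn, called clusters ranged from 7 to 17 with AGN193109, 0 to 5 with tRA added to it, 5 to 11 with DEAB and 22 to 64 with tRA added to DEAB, where 0 to 1 of the 10 genes were called (Bmp2 at 0.52, without DEAB replicate 1). With the replicate block and an array left out, a setting added after the data were seen, 0 to 1 of the 10 were called with AGN193109, 0 to 1 with DEAB and 2 to 3 with tRA added to DEAB, 3 again without DEAB replicate 1. Values that took both signs were Bmpr1a with AGN193109 (-0.021 to 0.13) and, with tRA added, Bmpr1a (-0.18 to 0.024), Acvr1 (-0.049 to 0.090) and Bmpr2 (-0.088 to 0.12). For AGN193109+tRA against vehicle they were Bmp2 (-0.0097 to 0.10), Bmp4 (-0.16 to 0.13), Tgfb2 (-0.087 to 0.13, and -0.015 to 0.073 with the block), Tgfb1 (-0.0061 to 0.072), Bmpr1a (-0.11 to 0.066), Tgfbr1 (-0.0093 to 0.11) and Tgfbr2 (-0.097 to 0.11). With DEAB they were Acvr1 (-0.17 to 0.011), Tgfbr1 (-0.064 to 0.039), Bmpr2 (-0.017 to 0.017) and Tgfbr2 (-0.056 to 0.065), with tRA added Bmpr1a (-0.054 to 0.050) and Acvr1 (-0.0039 to 0.11), and for DEAB+tRA against vehicle Bmp4 (-0.12 to 0.057), Tgfb1 (-0.038 to 0.047) and Acvr1 (-0.12 to 0.059). The difference between inhibitors did so for Bmp4 (-0.040 to 0.12) and Tgfb2 (-0.11 to 0.24).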
